A study of Mus musculus with 3 samples.

Results

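Gnas and 7 other genes that encode subunits of heterotrimeric G proteins were described across the cell classes of the mouse nucleus accumbens. The 8 genes were taken by symbol from the 28001 features of the deposited matrix, and all 8 were found: Gnas, Gnal, Gnao1, Gnai1, Gnai2 and Gnaq encode alpha subunits, Gnb5 a beta subunit and Gng7 a gamma subunit. Gnas was chosen by its measured level in these libraries, which was far higher in Adora2a-type than in Drd1-type spiny neurons. Every value of that contrast is therefore given as a description, with no test.

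The 3 samples form 1 group, single cells from a coronal dissection of the nucleus accumbens (NAc) of mice of the strain Thy1::ChR2. This line carries channelrhodopsin (ChR2), a light-gated cation channel, under the Thy1 promoter, which drives transgenes in subsets of projection neurons. All 3 samples had FLiCRE labelling during light stimulation of ChR2 in the NAc, and no sample without the transgene or without light was analysed here. FLiCRE is a set of constructs that makes a cell express a reporter, here mCherry, when raised calcium coincides with light. The age and number of the animals, and whether animals were pooled, are not given in the sources used here. The p-values therefore measure only how differences between classes, or between labelled and unlabelled cells, vary over these 3 libraries. That spread is pooled over the classes of each fit and may be technical.

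A heterotrimeric G protein carries the signal of a membrane receptor to enzymes and channels. The alpha subunit binds GTP after receptor activation and parts from the beta-gamma pair, and its type sets the target: Gs and Golf stimulate adenylyl cyclase, Gi and Go inhibit it, and Gq activates phospholipase C. In striatal spiny neurons Golf (Gnal) is known to link both the dopamine D1 receptor and the adenosine A2A receptor to adenylyl cyclase 5 (Adcy5), together with the gamma subunit Gng7. Gs (Gnas) serves this role in most other cells.

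The C-terminal tail of the alpha subunit contacts the receptor. The last 30 coding bases before the stop codon of 1 annotated transcript (GENCODE vM21, build GRCm38, which is mm10) are shown for 5 of the 6 alpha subunits, 5′ to 3′ on the coding strand, because they show how far these 5 differ from each other. Gnal is not shown or compared here. Capitals mark bases that differ from Gnas at the same position.
Gnas (chr2:174346356-174346385, plus strand): cgcatgcatctccgccaatacgagctgctc
Gnao1 (chr8:93967023-93967052, plus strand): GCcaACAatctccgGGGCtGcgGCTtgTAc
Gnai1 (chr5:18267022-18267051, minus strand): AAGaATAaCctAAAAGaCtGTgGTctCTtc
Gnai2 (chr9:107615638-107615667, minus strand): AAGaACAaCctGAAGGaCtGTgGCctCTtc
Gnaq (chr19:16383362-16383391, plus strand): cAGCtgAaCctGAAGGaGtacAaTctgGtc
Gnai1 and Gnai2 shared 26 of the 30 bases, whereas Gnas shared 16 with Gnaq, 15 with Gnao1 and 11 with each of the Gi genes. The coding transcripts of Gnas and of Gnao1 have 5 different ends each. The Gnas gene spans chr2:174284320-174346744 and has 24 annotated transcripts, of which 12 end in the same last exon, chr2:174346242-174346744, from 7 different first positions. The kit counts transcripts near their 3′ end, so a Gnas UMI (unique molecular identifier, 1 captured molecule) does not tell these transcripts apart. Nespas and Gm20721 are annotated on the strand opposite to Gnas. Nespas had 2 UMIs in Adora2a-type and 0 in Drd1-type neurons, and Gm20721 had 3 and 1, beside 1314 and 582 UMIs of Gnas.

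After filtering, 9923 cells were kept (2306, 5783 and 1834 in libraries 1 to 3), with median depths of 986, 2084 and 2674 UMIs per cell. The libraries are the 3 suffixes of the cell barcodes, and their numbers are only names. Each pair of libraries shared between 7 and 22 barcode sequences. Counts of distinct marker genes put 6360 cells into the 12 classes that were fitted, from 77 T cells and 82 interneurons to 1783 Drd1-type neurons, and left 3522 cells in no class. In each class all markers of its own list had UMIs. Levels are in CPM (the gene's UMIs over all UMIs of the class in that library, at the usual scaling). The 4 markers of the Adora2a list summed to between 8582 and 10648 CPM in Adora2a-type and between 347 and 1783 CPM in Drd1-type neurons. The 5 markers of the Drd1 list summed to between 141 and 301 CPM in the first and between 3485 and 3981 CPM in the second. Drd2, a receptor that usually defines the first class, averaged only 3.26 CPM there, beside 1060.4 CPM of Adora2a and 271 CPM of Gpr6.

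Gnas, the stimulatory alpha subunit Gs, was present in all 12 classes. In Adora2a-type neurons Gnas stood at 447, 387 and 769 CPM in libraries 1, 2 and 3. In Drd1-type neurons Gnas stood at 55.7, 115 and 143 CPM. Every Adora2a-type value lay above every Drd1-type value, and in each library Drd1-type neurons were the lowest of the 12 classes. The ratio was 8.02, 3.38 and 5.38 in the 3 libraries, a mean log2 ratio of 2.40 ± 0.62 (SD, n = 3) or 5.26-fold. Among 4387 genes of at least 50 CPM in either class that were no gate marker, the mean log2 ratio of Gnas had rank 3 from the highest. Of these genes, 15 were over 2-fold higher in Adora2a-type neurons and 27 over 2-fold higher in Drd1-type neurons.

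The same Gnas UMIs are given here cell by cell, as a description and not as further evidence for the difference that chose Gnas. In Adora2a-type neurons 114 of 181, 318 of 636 and 77 of 207 cells in libraries 1 to 3 had no Gnas UMI, and in Drd1-type neurons 166 of 178, 1021 of 1294 and 222 of 311. Shares of Drd1-type cells with a UMI were therefore 6.74, 21.1 and 28.6%. When cells were thinned to 1000 UMIs, the shares with a UMI were 34.2, 26.0 and 35.7% in Adora2a-type and 2.52, 8.83 and 10.96% in Drd1-type neurons. Thinning left out 64, 9 and 8 Adora2a-type and 59, 37 and 10 Drd1-type cells. Shares of cells with 2 or more Gnas UMIs were 9.39, 25.5 and 44.0% against 0.562, 4.71 and 9.97%, and the highest count in 1 cell was 12, 23 and 34 against 2, 13 and 8 UMIs. No class lacked Gnas, so no share in a cell type without the gene can be set beside these, and the part of free RNA was not tested.

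Gnas was also followed across subsets of the spiny neurons. Drd1-type neurons with no marker of the Adora2a list had 78.2 ± 24.6 CPM of Gnas, and those with 1 such marker had 117 ± 57.2 CPM (SD, n = 3). Adora2a-type neurons with no marker of the Drd1 list had 521 ± 209.8 CPM, and those with 1 had 536 ± 247 CPM. By their own list, Adora2a-type neurons with 2 markers had 509, 428 and 811 CPM in libraries 1 to 3. Those with 3 or 4 markers had less in each library, at 265, 335 and 744 CPM. Drd1-type neurons with 2, 3, and 4 or 5 markers of their own list had 134 ± 62.0, 87.4 ± 69.1 and 114 ± 37.4 CPM. With only cells lacking any UMI of the other list on both sides, the mean log2 ratio of Gnas was 2.71 ± 0.39. Neurons in no class, with at most 1 marker of either spiny list, had 405, 515 and 914 CPM of Gnas. The glutamatergic and Sst-Npy lists, which mark neurons of classes with more Gnas, had low and overlapping sums in both spiny classes. The glutamatergic list summed to between 0 and 28.9 CPM in Adora2a-type and between 4.29 and 25.8 CPM in Drd1-type neurons, and to at least 1697 CPM in its own class. The Sst-Npy list summed to between 26.8 and 124 CPM and between 8.58 and 139 CPM, with Chodl at 0 in both. In interneurons the Sst-Npy list summed to at least 20935 CPM. The Pvalb list, which also gates interneurons, is not compared here. Whether cells of these other classes add to the Gnas values of the spiny classes was not tested.

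**Figure D1:**
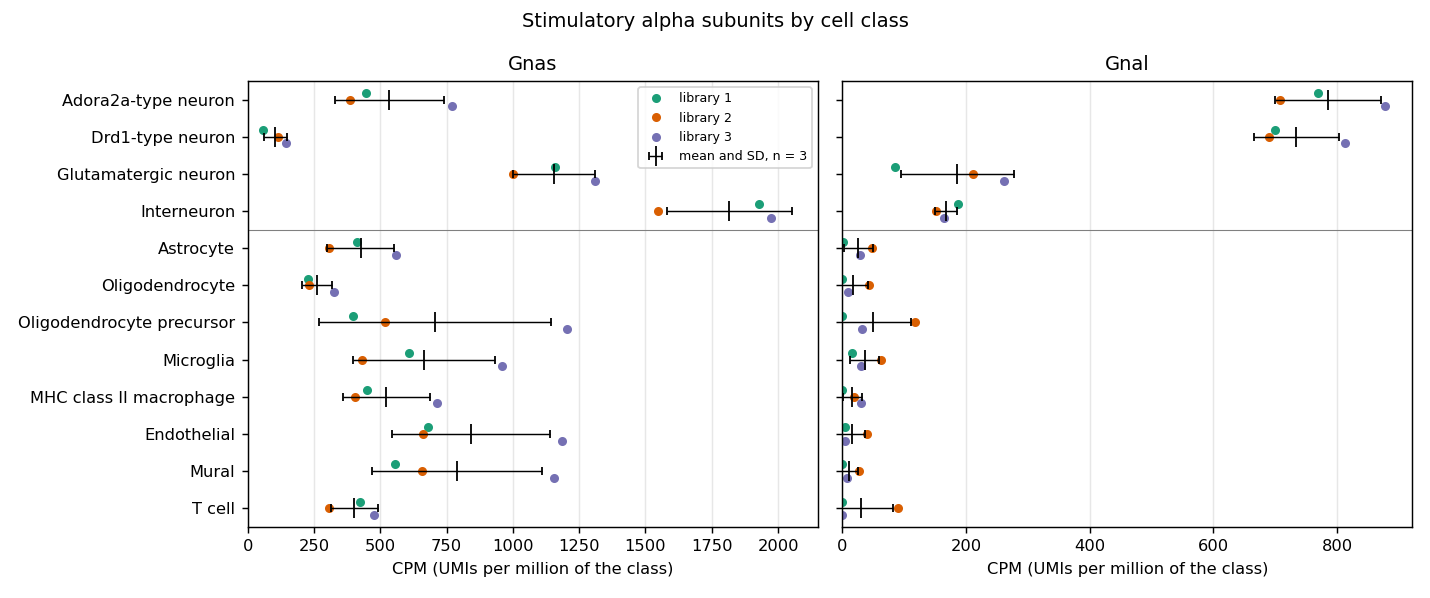
Level of Gnas (left) and Gnal (right) in CPM, on separate linear axes, in 12 marker-gated cell classes; coloured points are the 3 libraries, and the bar is the mean with its SD. Gnas in Drd1-type neurons (55.7 to 143 CPM) has the lowest mean of all classes, while Gnal is highest in both spiny classes (689 to 877 CPM).

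Across the classes, Gnas was highest in interneurons (1929, 1547 and 1975 CPM), followed by glutamatergic neurons (1158, 999 and 1309.7 CPM). Endothelial cells (842 ± 299 CPM, SD, n = 3), mural cells (789 ± 321), oligodendrocyte precursors (706 ± 436), microglia (665 ± 268), Adora2a-type neurons (534 ± 205), MHC class II macrophages (523 ± 165), astrocytes (426 ± 127) and T cells (402 ± 88.0) came next. Oligodendrocytes (261 ± 55.1 CPM) and Drd1-type neurons (104 ± 44.4 CPM) were last. Neighbours in that order from endothelial cells to T cells differed by less than the larger of their SDs. The ranges of neighbours were apart for interneurons and glutamatergic neurons and for oligodendrocytes and Drd1-type neurons. Library 3 gave the highest Gnas value in 12 of 12 classes and had the highest median depth per cell; the part of depth was not tested.

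Gnal, the alpha subunit Golf, had a narrower distribution. In Adora2a-type neurons Gnal stood at 769, 708 and 877 CPM, and in Drd1-type neurons at 699, 689 and 813 CPM. The values of the spiny classes overlapped, and their mean log2 ratio was 0.10 ± 0.051 (SD, n = 3). Glutamatergic neurons had 186 ± 91.5 CPM and interneurons 168 ± 17.4 CPM of Gnal, and the 8 non-neuronal classes had means between 11.7 and 50.3 CPM. Library 2, which holds the most spiny neurons, gave the highest Gnal in 7 of these 8; the part of free RNA was not tested. After thinning, 53.8 ± 1.6% of Adora2a-type and 51.3 ± 3.7% of Drd1-type cells had a Gnal UMI, against 0.529 ± 0.92% of mural cells. Unthinned shares in mural cells were 0, 2.29 and 1.64%, at median depths of 708 to 1644 UMIs, where the Adora2a-type cells had 1174 to 2803.

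The balance of the stimulatory pair differed between the classes. Gnas made up 36.8, 35.3 and 46.7% of the Gnas and Gnal UMIs in Adora2a-type neurons, on totals of 272, 2043 and 1053 UMIs. In Drd1-type neurons it made up 7.39, 14.3 and 14.9%, on 176, 2905 and 1037 UMIs. In glutamatergic neurons the share was 86.3 ± 5.9%, in interneurons 91.5 ± 0.68%, and in the non-neuronal classes the means lay between 92.4 and 98.5%. Capture can differ between the genes, so the share is compared between classes and not read as a ratio of molecules.

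**Figure D2:**
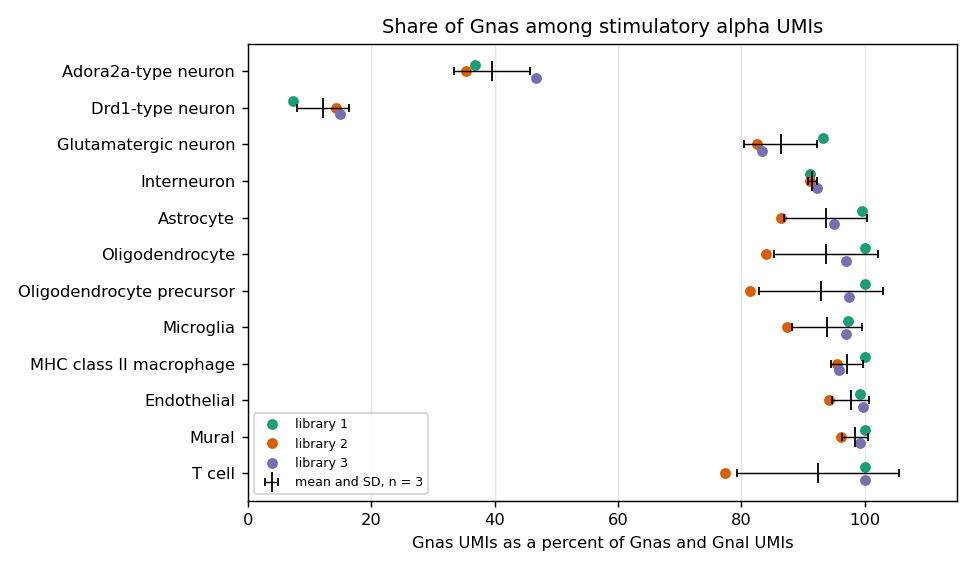
Gnas UMIs as a percent of the UMIs of Gnas and Gnal together, by cell class; points are the 3 libraries, and the bar is the mean with its SD, which can reach past the possible maximum. Drd1-type neurons (7.39 to 14.9%) and Adora2a-type neurons (35.3 to 46.7%) lie apart from each other and from all other classes.

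Of the inhibitory members, Gnao1, the alpha subunit Go that is abundant in neurons, stood at 537, 312 and 623 CPM in Adora2a-type and at 403, 238 and 522 CPM in Drd1-type neurons. It was higher in the first class within each library (mean log2 ratio 0.36 ± 0.085, SD, n = 3), and the ranges overlapped. Gnai1, an alpha subunit of the Gi type, ran the other way, at 44.7, 71.8 and 59.4 CPM in Adora2a-type and 68.6, 138 and 98.6 CPM in Drd1-type neurons. Its mean log2 ratio was -0.76 ± 0.16, below 0 in 3 of 3 libraries, with overlapping ranges. Gnai2, a Gi subunit known from immune and vascular cells, was low in both classes (77.3 ± 26.0 and 60.8 ± 4.39 CPM), and its ratio changed sign between libraries.

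Gnaq, which couples receptors to phospholipase C, was near level between the spiny classes, at 196 ± 33.0 and 202 ± 38.6 CPM, with a mean log2 ratio of -0.04 ± 0.064 (SD, n = 3). Gng7, the gamma subunit paired with Golf, stood at 250.4, 248 and 329.7 CPM in Adora2a-type and at 257, 192 and 233 CPM in Drd1-type neurons, with a log2 ratio below 0 in library 1 and above 0 in the others. Gnb5, the atypical beta subunit that binds RGS proteins, had 26 UMIs in all 9923 kept cells, 6 of them in Adora2a-type and 9 in Drd1-type neurons. Its 0 UMIs in oligodendrocytes of library 3 allow up to 2.72 CPM, and in T cells of library 3 up to 204 CPM (3 UMIs of the class total, counting error only). Gnb5 did not pass the filter on low counts and entered no test.

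Of the 7 members that passed the filter, Gnas alone had no overlap between the spiny classes, and 6.21% of the 8142 genes tested had none. By edgeR's quasi-likelihood test 0.577% of all genes differed between these classes at an adjusted p under 0.05, 0.209% higher and 0.368% lower in Adora2a-type neurons. That contrast chose Gnas, so nothing is read from these shares.

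**Figure D3:**
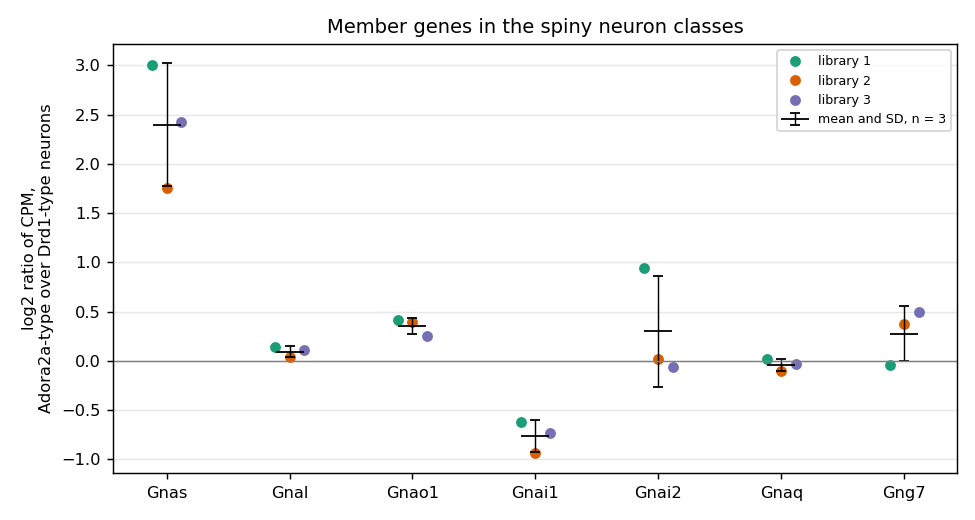
Log2 ratio of CPM, Adora2a-type over Drd1-type neurons, for the 7 members with enough UMIs; points are the 3 libraries, and the bar is the mean with its SD. Gnas lies at 1.76, 2.43 and 3.004, far above 0, Gnai1 lies below 0 in all libraries, and the others lie between -0.11 and 0.95.

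Partners of the G proteins were followed in the same spiny classes in lists of other subunits, chaperones, RGS proteins, adenylyl cyclases, Gq effectors, protein kinase A with phosphodiesterases, and receptors. Of 48 listed genes of at least 50 CPM that were no gate marker, 7 had no overlap and 1 passed a mean ratio of 2-fold. Of all 8142 genes tested 6.21% had no overlap, and of the 4387 genes of that level 15 and 27 passed 2-fold as higher and lower. The share without overlap includes genes under 50 CPM, so it is no matched background for the 7 of 48, from which nothing is read. The listed gene past 2-fold was Gnb4, a beta subunit, at 29.8 ± 3.99 against 94.5 ± 27.9 CPM in Adora2a-type and Drd1-type neurons (mean log2 ratio -1.63 ± 0.50, SD, n = 3), without overlap. Adcy5, the main striatal adenylyl cyclase, had 816 ± 154 against 739 ± 152 CPM, with overlapping values. Htr2c, a serotonin receptor that couples to Gq, had the highest mean log2 ratio of the receptors that were no gate marker (0.84 ± 0.27), at 232 ± 51.4 against 135 ± 56.0 CPM. Cnr1, the cannabinoid receptor that couples to Gi, had the lowest, with a wide spread (-0.59 ± 0.82). Pcp4, a small calmodulin-binding protein listed with the chaperones, had 2982 ± 628 against 4636 ± 1025 CPM without overlap, as had Prkca, a protein kinase C (70.9 ± 13.8 against 109.6 ± 12.8 CPM). In their lists, Gnaz (-0.56), Gng13 (-0.27), Rgs4 (-0.49), Adcy3 (-0.26) and Prkar1b (-0.26) had the lowest mean log2 ratios. Gna11 (0.20), Gnb2 (0.28), Gng5 (0.15), Rasd2 (0.41), Rgs10 (0.63), Dgkb (0.41) and Pde4b (0.30) had the highest.

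The other members differed in where they were found. Gnao1 was highest in Adora2a-type neurons and lay between 328 ± 193 CPM (interneurons) and 390.4 ± 126 CPM (glutamatergic neurons) in the other neuron classes, was at 232 ± 48.2 CPM in astrocytes and 189 ± 54.0 CPM in oligodendrocytes, and had means of at most 51.2 CPM elsewhere, with 0 UMIs in T cells. Gnai1 was highest in oligodendrocytes (152 ± 29.9 CPM), followed by interneurons (104 ± 48.1), glutamatergic neurons (104 ± 4.67) and Drd1-type neurons (102 ± 34.7), whose SDs overlapped. Adora2a-type neurons had 58.6 ± 13.6 CPM of Gnai1. Gnaq was highest in interneurons (299 ± 93.5 CPM) and glutamatergic neurons (296 ± 71.8 CPM), which did not differ beyond their SDs. Gng7 had, outside the spiny classes, its highest means in oligodendrocytes (60.8 ± 4.24 CPM) and interneurons (60.7 ± 1.66 CPM). Gnai2 was highest in endothelial cells (1117 ± 163 CPM) and lay between 271 and 563 CPM in the other non-neuronal classes.

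The members were then tested between the 4 neuronal and the 8 non-neuronal classes, a contrast other than the one that chose Gnas. Its neuronal side includes both spiny classes of that choice, so the Gnas result is not independent of it. Counts summed by class and library were fitted with edgeR's quasi-likelihood test, with library as a block and p-values adjusted by Benjamini-Hochberg over 8142 genes. Of 7 members tested, 5 were higher and 1 was lower in neurons, where 60.1% of all genes passed, 42.2% higher and 17.9% lower. Gnal was higher in neurons, with 468 ± 53.1 against 25.8 ± 27.4 CPM (SD, n = 3; log2 fold change 3.64, SE 0.24, adjusted p = 8.3e-19 in edgeR). Gnaq was higher too, at 248 ± 50.9 against 80.0 ± 17.4 CPM (log2 fold change 1.65, SE 0.18, adjusted p = 9.2e-14 in edgeR). Gnai2 was lower in neurons in all 3 libraries, at 80.1 ± 2.73 against 531 ± 55.8 CPM (log2 fold change -2.88, SE 0.15, adjusted p = 1.7e-29 in edgeR).

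Gnao1, Gnai1 and Gng7 were also higher in neurons. Gnao1 had 399 ± 137 against 66.5 ± 9.95 CPM, Gnai1 92.0 ± 19.2 against 32.0 ± 13.3 CPM and Gng7 147 ± 16.4 against 22.9 ± 6.73 CPM (edgeR adjusted p = 1.6e-26, 8.1e-14 and 1.6e-10). T cells had 0 UMIs of Gnao1 and Gng7 in all libraries, and MHC class II macrophages 0 of Gnai1, so the fitted log2 fold changes of 3.84, 2.83 and 2.51 depend on the prior count and are no bounds. When cells were summed over the neuronal and over the non-neuronal classes, which gives large classes more weight, the values were 0.97, 0.03 and 1.92. The call for Gnai1 was then lost (edgeR adjusted p = 0.9; 8.0e-18 to 0.9 over the settings tried). Gnas gave means of 903 ± 144 against 577 ± 213 CPM but a fitted log2 fold change of -0.09, SE 0.12, adjusted p = 0.59 in edgeR, so the arithmetic means and the fit on the log scale differ in sign. Its fitted sign also changed without TMM scaling (0.17), and it passed when cells under 1000 UMIs were left out (-0.32, edgeR adjusted p = 0.02; 0.02 to 1 over the settings tried).

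**Figure D4:**
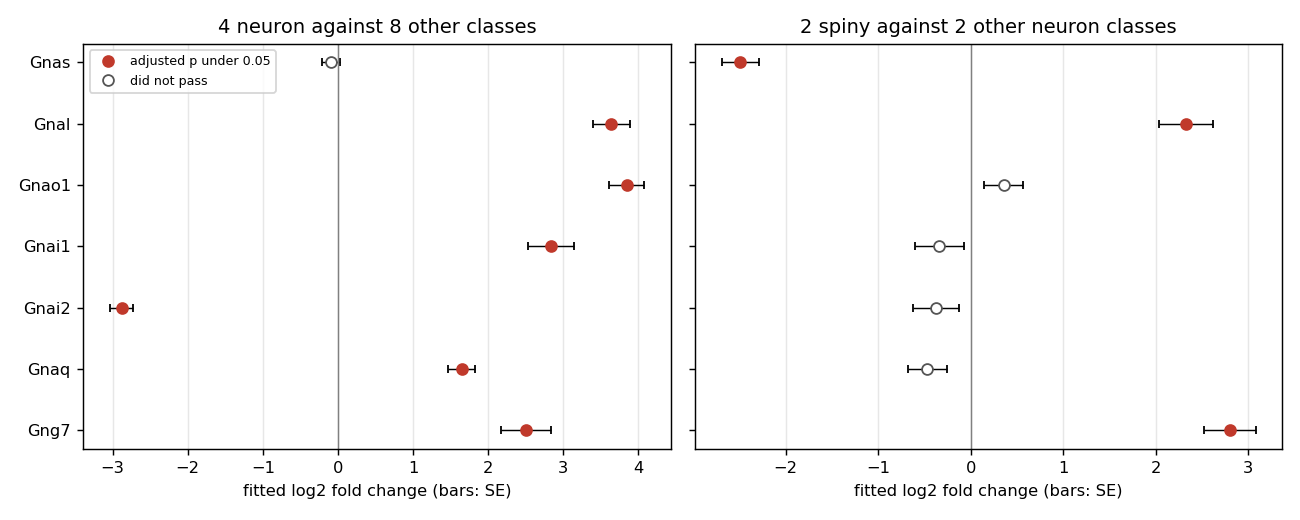
Fitted log2 fold change with its SE for 7 members, for the 4 neuronal against the 8 non-neuronal classes (left) and for the 2 spiny against the 2 other neuron classes (right); filled points have an edgeR adjusted p under 0.05, and open points did not pass. Gnas lies near 0 on the left (-0.09) and at -2.49 on the right, where Gnal (2.33) and Gng7 (2.80) lie on the other side.

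Most listed enzymes and RGS proteins were higher in neurons, and the other subunits were mixed. Of 6 other alpha subunits tested, 2 were higher and 3 lower. Gnaz, a Gi-family subunit of neurons, had 62.4 ± 12.2 against 6.27 ± 4.18 CPM, while Gna12 (8.62 ± 2.58 against 72.8 ± 17.5 CPM) and Gna13 (21.2 ± 3.51 against 75.5 ± 13.2 CPM) were lower. Of 8 other gamma subunits, 3 were higher and 3 lower, with Gng5 at 58.1 ± 11.5 against 786 ± 162 CPM, Gng11 at 15.1 ± 6.69 against 585 ± 74.2 CPM and Gng4 at 51.9 ± 6.67 against 4.61 ± 2.91 CPM. Of 3 other beta subunits, Gnb2 alone passed, as higher (665 ± 72.5 against 368 ± 102 CPM). Of 5 adenylyl cyclases 4 were higher, with Adcy1 at 129.5 ± 62.6 against 2.97 ± 2.83 CPM, Adcy2 at 46.5 ± 5.03 against 7.34 ± 2.17 CPM and Adcy5 at 432 ± 61.9 against 41.8 ± 34.8 CPM.

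RGS proteins, which speed GTP hydrolysis by alpha subunits, were higher in neurons for 10 of 13 and lower for 1, with Rgs17 at 186 against 10.2 CPM, Rgs8 at 143 against 7.14 CPM and Rgs7bp, the membrane anchor of the R7 family, at 174 against 28.9 CPM. Of 12 protein kinase A and phosphodiesterase genes, 10 were higher, among them Prkar1b (459 against 28.1 CPM), Pde10a (497 against 30.4 CPM) and Pde1b (340.0 against 32.2 CPM). Gq effectors were higher for 5 of 6, with the kinase Prkcb at 852 against 79.9 CPM, the phospholipase Plcb1 at 290.5 against 37.4 CPM and the diacylglycerol kinase Dgkb at 182 against 18.5 CPM. Chaperones and activators were higher for 4 of 6, with the Golf chaperone Ric8b at 73.3 against 10.2 CPM and the small GTPase Rasd2 at 193 against 16.3 CPM. That count includes Pcp4 (2941 against 299 CPM), which binds calmodulin and is not known as a chaperone of G proteins. All 8 receptors tested were higher, among them Oprk1 (78.4 against 2.70 CPM), Cnr1 (108 against 4.69 CPM) and Htr2c (133 against 8.58 CPM). Medians of the log2 ratio of mean CPM ran from -1.14 (gamma subunits) to 3.83 (receptors) over these lists, beside 0.28 over all genes and 1.63 over the 7 members.

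Between spiny and other neurons, the stimulatory alpha subunits went opposite ways. Of 7 members, 2 were higher and 1 was lower in the spiny classes, where 19.0% of all genes passed, 11.3% higher and 7.71% lower. Gnas was lower in spiny neurons in each library, at 319 ± 118 against 1486 ± 191 CPM (SD, n = 3; log2 fold change -2.49, SE 0.20, adjusted p = 5.1e-18 in edgeR). Its spiny side is made of the 2 classes whose contrast chose Gnas, so this p-value is not independent of the choice. Gnal was higher, at 759 ± 76.3 against 177 ± 39.3 CPM (log2 fold change 2.33, SE 0.30, adjusted p = 1.3e-08 in edgeR). Gng7 was higher, at 252 ± 30.7 against 41.5 ± 2.20 CPM (log2 fold change 2.80, SE 0.28, adjusted p = 8.2e-14 in edgeR). In all 3 libraries both spiny classes were below both other neuron classes in Gnas. Gnao1 (0.36), Gnai1 (-0.34), Gnai2 (-0.38) and Gnaq (-0.47) did not pass, with edgeR adjusted p between 0.11 and 0.44. Gnaq passed with DESeq2 (-0.60, adjusted p = 0.039) and also under another setting of edgeR (adjusted p = 0.033). Its adjusted p ran from 0.033 to 0.67 over the edgeR and DESeq2 settings tried.

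Adcy5, the cyclase driven by Golf, was higher in the spiny classes at 778 ± 149 against 85.7 ± 28.7 CPM. Adcy2 (11.6 ± 2.03 against 81.4 ± 8.04 CPM) and Adcy7 (0.320 ± 0.554 against 4.82 ± 4.49 CPM) were lower. Of 5 cyclases 2 were higher and 3 lower. The mean of 4.82 CPM for Adcy7 lay below the level of 3 UMIs in interneurons (14.7 to 93.3 CPM) and glutamatergic neurons (7.43 to 28.2 CPM). Its call therefore rests on few UMIs. Ric8b, the chaperone of Golf, was higher at 102 ± 10.2 against 44.4 ± 3.46 CPM, as were Rasd2 (338 against 47.3 CPM) and Gpsm1 (54.9 against 34.9 CPM), 3 of 6 in that list, with 0 lower. RGS proteins were higher for 7 of 13 and lower for 1. Rgs9, the striatal RGS protein that pairs with Gnb5, had 510.2 ± 126 against 38.8 ± 22.5 CPM and Rgs14 67.9 ± 4.45 against 11.9 ± 2.56 CPM, while Rgs3 was lower (2.20 ± 1.31 against 39.3 ± 7.53 CPM). Of 6 other alpha subunits 0 passed.

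Of 8 other gamma subunits, 2 were lower in spiny neurons and 0 were higher: Gng2 had 9.34 ± 8.24 against 159 ± 51.1 CPM and Gng4 6.43 ± 6.19 against 97.3 ± 12.9 CPM. Of 9 gamma subunits tested, Gng7 was the one that passed as higher there. Of 3 other beta subunits Gnb4 (62.1 against 23.5 CPM) and Gnb2 (826 against 504 CPM) were higher. Of 12 kinase and phosphodiesterase genes, 7 were higher and 1 lower, with Pde7b at 66.1 against 2.77 CPM, Pde10a at 905 against 89.0 CPM and Pde1b at 575 against 105 CPM. Gq effectors split, with Dgkb (306 against 58.9 CPM) and Itpr1 (376 against 168 CPM) among 3 that were higher and Plcb4 (5.14 against 76.3 CPM) lower, of 6. Receptors were higher for 6 of 8 and lower for 1, among the former Htr1b (123 against 7.24 CPM) and Oprk1 (132 against 25.3 CPM). The median log2 ratio of mean CPM was -0.37 over the 7 members and -0.02 over all genes.

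**Figure D5:**
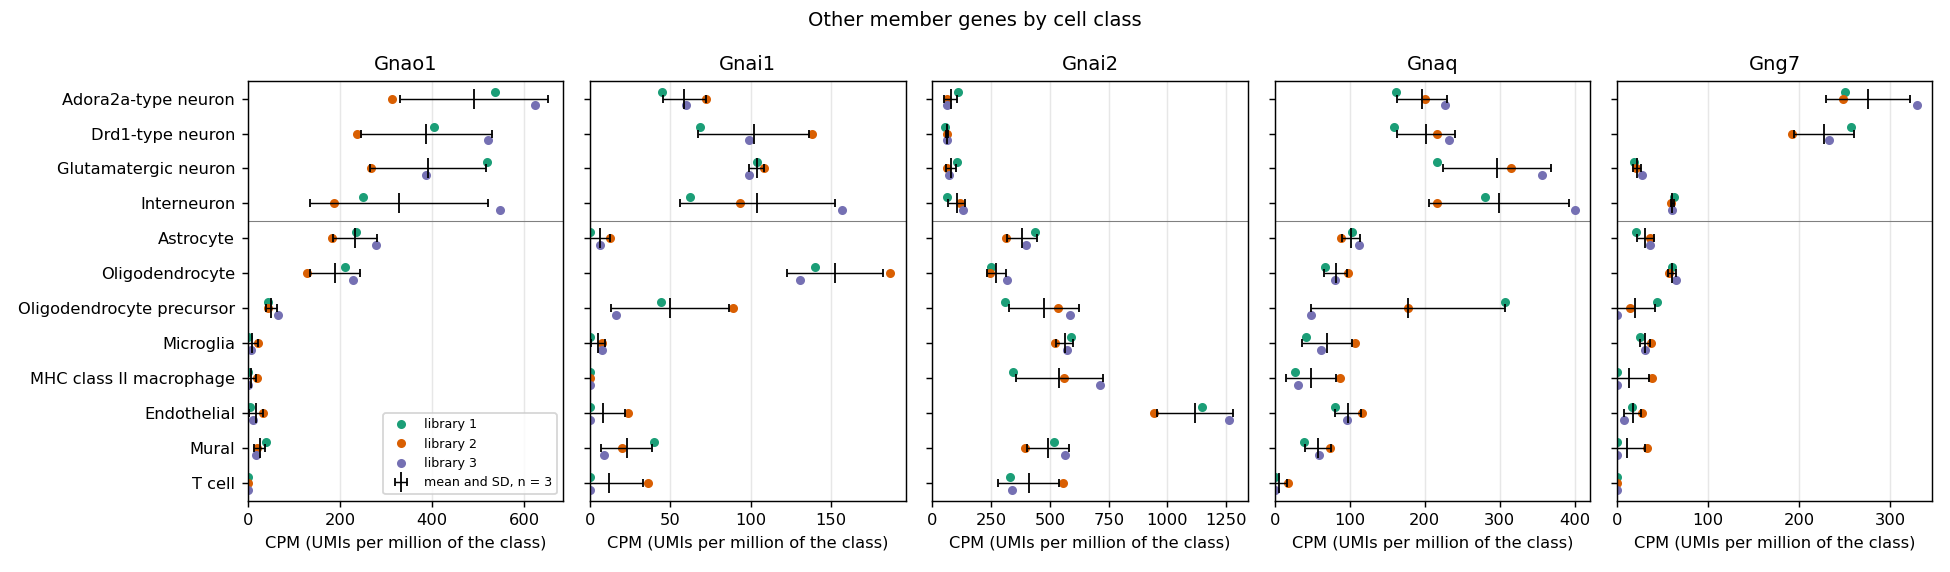
Level in CPM of Gnao1, Gnai1, Gnai2, Gnaq and Gng7, each on its own linear axis, by cell class; points are the 3 libraries, and the bar is the mean with its SD. Gnai2 is low in the 4 neuron classes and highest in endothelial cells (941 to 1264 CPM), Gnai1 is high in oligodendrocytes (131 to 186 CPM), and Gng7 is high in both spiny classes (192 to 329.7 CPM).

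Each of 4 non-neuronal classes was compared with the mean of the other 7. In oligodendrocytes 3 of 7 members were higher and 2 lower, where 33.0% of all genes passed, 24.8% higher and 8.23% lower. Gnai1 stood at 140.1, 186 and 131 CPM, and the other non-neuronal classes had 14.8 ± 10.99 CPM on average (SD, n = 3; edgeR adjusted p = 3.7e-22). All 3 oligodendrocyte values lay above those of the other non-neuronal classes, which reached 88.8 CPM in precursors. Gng7 (60.8 ± 4.24 against 17.5 ± 8.25 CPM) and Gnao1 (189 ± 54.0 against 48.9 ± 4.73 CPM) were also higher (edgeR adjusted p = 8.2e-08 and 5.6e-17). Gnas was lower, at 261 ± 55.1 against 622 ± 236 CPM (log2 fold change -0.87, SE 0.22, adjusted p = 9.7e-04 in edgeR), as was Gnai2, at 271 ± 40.1 against 568 ± 58.3 CPM (log2 fold change -0.70, edgeR adjusted p = 0.00785). With library 3 left out, the calls for Gnas and Gnai2 were lost (edgeR adjusted p = 0.098 and 0.14), and with library 2 left out that for Gnai2 (0.084). Over the settings tried the adjusted p ran from 2.5e-08 to 0.098 for Gnas and from 1.4e-09 to 0.14 for Gnai2.

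In astrocytes 3 of 7 members were higher and 0 lower, where 36.8% of all genes passed, 29.3% higher and 7.48% lower. Gnao1 stood at 235, 183 and 279 CPM, beside 42.8 ± 4.48 CPM in the other non-neuronal classes (edgeR adjusted p = 1.2e-19). Gnaq had 101 ± 11.97 against 77.0 ± 21.5 CPM (edgeR adjusted p = 0.0022) and Gng7 31.2 ± 9.12 against 21.8 ± 7.48 CPM (edgeR adjusted p = 0.017). Gng7 was higher in oligodendrocytes (60.8 ± 4.24 CPM) and near level in microglia (30.8 ± 5.91 CPM). Gnaq had a higher mean in oligodendrocyte precursors (178 ± 129 CPM). T cells, with 0 UMIs of Gng7 and 1 of Gnaq, had equal weight in both contrasts. Without library 3 the calls for Gnaq and Gng7 were lost (edgeR adjusted p = 0.084 and 0.072; 2.8e-04 to 0.22 over the settings tried for Gnaq and 0.0066 to 0.31 for Gng7). Gng7 turned to -0.38 on the log2 scale when the cells of the other classes were summed.

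In endothelial cells 2 of 7 members were higher and 0 lower, where 21.9% of all genes passed, 18.0% higher and 3.82% lower. Gnai2 stood at 1146, 941 and 1264 CPM, the highest of any class in each library, beside 447 ± 51.3 CPM in the other non-neuronal classes (log2 fold change 1.39, SE 0.19, adjusted p = 3.0e-09 in edgeR). Gnas stood at 678, 661 and 1187 CPM, beside 539 ± 201 CPM (log2 fold change 0.79, SE 0.20, adjusted p = 0.0013 in edgeR). In microglia 1 of 7 members was higher and 0 lower, where 19.7% of all genes passed, 17.2% higher and 2.44% lower. This was Gnas, at 608, 431 and 957 CPM beside 564 ± 207 CPM (log2 fold change 0.64, SE 0.21, adjusted p = 0.02 in edgeR). Its means were higher in endothelial cells (842 ± 299 CPM), mural cells (789 ± 321) and oligodendrocyte precursors (706 ± 436) than in microglia (665 ± 268). The contrast of the log2 TMM factors, which is subtracted from the microglial fold change, was -0.341. Leaving out library 1 or library 3 ended the call (edgeR adjusted p = 0.16 or 0.23), which was lost in 8 of 13 alternatives in all (0.02 to 0.31 over the settings tried).

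Gnao1 and Gnai1 were near 0 in several of these classes. Microglia had 0, 6 and 1 UMIs of Gnao1 and 0, 2 and 1 of Gnai1, and endothelial cells had 1, 10 and 3 of Gnao1 and 0, 7 and 0 of Gnai1. Astrocytes had 0, 10 and 4 UMIs of Gnai1, or 6.19 ± 6.21 CPM. With T cells or MHC class II macrophages at 0, edgeR gave an adjusted p of 1 for these in the equal-weight contrasts. With the other classes summed, Gnai1 was lower in astrocytes (log2 fold change -3.69), microglia (-3.62) and endothelial cells (-3.09), and Gnao1 in microglia (-3.45) and endothelial cells (-3.18), with edgeR adjusted p between 8.1e-07 and 4.5e-04.

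Other subunits and regulators that passed in these contrasts (edgeR adjusted p under 0.05) are given with their mean levels. In astrocytes Adcy2 had 50.6 against 1.16 CPM in the other non-neuronal classes, Rgs20 136 against 14.1 CPM and Gna13 207 against 56.7 CPM. In oligodendrocytes Gna12 had 178 against 57.8 CPM, the phosphodiesterase Pde4b 179 against 63.1 CPM and the adenosine A1 receptor gene Adora1 74.4 against 23.5 CPM, while Rgs10 was lower (12.8 against 226 CPM). In microglia Gngt2 had 419 against 92.1 CPM, Gna15, an alpha subunit of blood cells, 115 against 16.5 CPM, and Rgs10 832 against 109 CPM. In endothelial cells Gng11 had 1198 against 497 CPM, Rgs12 122 against 7.86 CPM and Plcb4 89.9 against 14.3 CPM. Of 8 other gamma subunits, 3 were higher in astrocytes, 3 in oligodendrocytes, 3 in microglia and 3 in endothelial cells, and 1, 2, 1 and 1 were lower. Of all genes 29.3, 24.8, 17.2 and 18.0% were higher in these classes, and 7.48, 8.23, 2.44 and 3.82% were lower. Nothing is read from such small counts.

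The genes whose levels followed a member most closely were ranked by Pearson's r of log2(CPM + 10), centred by library, over 36 sums of 12 classes in 3 libraries. Sums of 1 library share its depth and sums of 1 class its gate, so r is a description. For Gnal the closest were AI593442 (r = 0.96), the sialyltransferase gene St8sia3 (0.95), Ccdc106 (0.94), the presynaptic scaffold gene Erc2 (0.94) and the potassium channel gene Kcna4 (0.94). For Gng7 they were Spock3 (0.88), Rasd2 (0.86), Strn (0.86), Akap5 (0.86) and Phactr1 (0.85). For Gnai2 they were Rtp4 (0.89), B2m (0.89), Gng5 (0.89), Ostf1 (0.89) and Zfp36l1 (0.88). For Gnas the closest were Slc7a3 (0.63), Rnf152 (0.63), Plcb4 (0.61), Il1rapl2 (0.60) and Vwc2 (0.60), all under 10 CPM in both spiny classes, too weak and too sparse to count as a finding. Between members, r was 0.75 for Gnal and Gng7, -0.82 for Gnal and Gnai2 and -0.15 for Gnas and Gnal.

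Spiny neurons with at least 1 mCherry UMI (10 to 294 cells per class and library) were compared with those without (166 to 1000 cells), with library and class as a block. Labelled cells had more UMIs, with medians of 1214 to 4805 against 1159 to 2928 per cell; the part of depth was not tested. Of 7 members 0 passed with edgeR over 5642 genes, where 0.496% of all genes did, 0.284% higher and 0.213% lower in labelled cells; 1 had an unadjusted p under 0.05, and with DESeq2 0 passed and 1 had an unadjusted p under 0.05. In edgeR that member was Gnao1, at 358, 308 and 424 CPM in labelled against 549, 314 and 654 CPM in unlabelled Adora2a-type neurons, and at 375, 200.4 and 469.6 against 406, 251 and 535 CPM in Drd1-type neurons. It was lower in labelled cells in 6 of 6 pairs (log2 fold change -0.25, SE 0.09, adjusted p = 0.23 in edgeR). These pairs are 2 classes from each of 3 libraries, which the fit treats as independent. Gnas stood at 215, 422 and 413 CPM in labelled and at 463, 377 and 823 CPM in unlabelled Adora2a-type neurons, and at 107, 109 and 124 against 51.3, 117 and 148 CPM in Drd1-type neurons (log2 fold change -0.16, SE 0.11, adjusted p = 0.6 in edgeR). In each library Gnas was higher in Adora2a-type than in Drd1-type neurons among labelled and among unlabelled cells. These are the same Gnas UMIs whose contrast chose Gnas, so this is a description and not further evidence. The labelled cells of library 1 rest on 3 and 2 Gnas UMIs. Of 49 listed partner genes 0 passed with edgeR or DESeq2, and 6 and 2 had an unadjusted p under 0.05. Over all 5642 genes, 11.7% had an unadjusted p under 0.05 with edgeR and 3.15% with DESeq2.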

How the data were processed

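Single cells were captured with a 10x Genomics 3′ v2 kit and, per the submitters' processing notes, counted with Cell Ranger 3.0 on mm10 (version 3.0.0 per the file headers); the deposited matrix holds raw UMI counts of 28001 features for 11625 barcodes, with no normalization by the authors. Its barcode suffixes give 3 libraries, which were not tied to the numbered samples. Barcodes with fewer than 300 detected genes or over 20% mitochondrial UMIs were left out. Scrublet scores (scanpy 1.11.5) removed the highest 0.8% per 1000 cells of each library (44, 296 and 28 cells).

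A cell entered a class by its number of distinct markers. Neurons needed 3 neuron markers and at most 2 of any non-neuronal list, then 2 of their class list and at most 1 of any other neuron class. Spiny neurons also needed 2 shared spiny markers, and interneurons 2 Pvalb-list markers. Neurons with 10 UMIs of Sst and Npy were also put with the interneurons, with no limit on markers of other neuron classes. Non-neuronal classes needed 3 markers (2 for T cells and oligodendrocyte precursors), fewer than that required number of every other such list, and at most 2 neuron markers. The gate numbers, and the pooling of interneurons, were set after the data were seen. Trbc2 and Gpr52 were not used here, and fibroblasts (4 cells in library 3) were not fitted. Genes with a close copy or an overlapping gene on the other strand may share reads; whether strand was used in counting is not given in the sources used here.

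Counts were summed per class and library (36 sums, 22 residual degrees of freedom) and tested with edgeR 4.0.16 (R 4.3.3; glmQLFit, robust, TMM scaling, filterByExpr, library as block), adjusted by Benjamini-Hochberg at 0.05. The block joins sums that come from the same library. Labelled and unlabelled spiny cells gave 12 sums (5 residual degrees of freedom). Fits were tested on simulated counts. DESeq2 1.42.0, other filters, gates, clusters and left-out libraries were alternatives. The members and lists were chosen with earlier results of these data known. Named partner genes are the 3 largest changes per list that passed and moved the same way in 3 libraries, and the highest and lowest ratio per list among genes of at least 50 CPM. A count of 0 is given a limit of 3 UMIs, for counting error only. TMM moved log2 fold changes by 0.255 (neuronal), -0.116 (spiny), -0.301 (astrocytes), -0.34 (oligodendrocytes), -0.341 (microglia) and 0.116 (labelled) as the contrast of the log2 scaling factors, which is subtracted from each fold change. Coordinates and coding sequences are from GENCODE vM21.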

Additional observations from a re-analysis of the deposited data

How the results depend on the processing

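The mean log2 Gnas ratio of Adora2a-type to Drd1-type neurons ran from 2.08 with Leiden clusters, which kept no macrophage class, to 2.72 without replicate 2, and from 2.09 to 2.72 when 1 library was left out. The counts of members passing in the neuronal, spiny and labelled comparisons moved by at most 1.5 times under every alternative run. Leaving out a library gave 1 to 3 members in astrocytes (1 without library 3), 3 to 5 in oligodendrocytes (3 without library 3), and 0 to 1 in microglia. The microglial count was 0 without the low-count filter, without the replicate block, with cells of at least 1000 UMIs, with the stricter gate, with Leiden clusters and without TMM scaling, and 3 with pairwise sums; the endothelial count was 5 with Leiden clusters and 5 with pairwise sums. Pairwise sums gave Gng7 -0.38 in astrocytes (adjusted p = 0.31) and -1.35 in endothelial cells (adjusted p = 0.016), against 1.55 and 0.39 in the equal-weight fit; they weight classes by cells. Without the replicate block Gnai2 also lost its call in oligodendrocytes (-0.68, adjusted p = 0.083), and no other member's call changed. Of the values of single members under an alternative, 632 were classed as the same, 24 lost a call, 17 gained one and 8 moved by more than their SD. Another 2 were classed as reversed, which are the Gng7 values above. Other sign changes were not counted as reversals, as for Gnas between neuronal and non-neuronal classes, whose log2 fold change ran from -0.41 to 0.20.

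Counts of all genes passing moved more. Spiny neurons had 1551, against 1012 without the replicate block, 932 without library 2 and 854 without library 3. Labelled cells had 28, against 8 with DESeq2, 57 without TMM scaling, 13 with cells of at least 1000 UMIs, 0 without the block, and 44, 0 and 6 without libraries 1, 2 and 3. Adora2a-type against Drd1-type had 47, against 26 with DESeq2, 78 without the filter, 25 without the block, and 23 and 26 without libraries 2 and 3. Microglia had 1603 (930 without library 2, 2822 with pairwise sums), endothelial cells 1780 (1139 without library 2, 1176 without library 3, 3302 with pairwise sums), neurons 4893 (7774 with pairwise sums) and oligodendrocytes 2686 (4557). The share of calls that were higher was 59.5% in spiny neurons (43.8% with DESeq2), 79.7% in astrocytes (69.5%, and 65.9% without TMM), 75.1% in oligodendrocytes (46.9% and 57.6%), 82.5% in endothelial cells (63.0% with DESeq2), 87.6% in microglia (71.9% without TMM), 57.1% in labelled cells (25.0% and 42.1%) and 36.2% in the spiny pair (50% with DESeq2). With pairwise sums the share was 47.6% in neurons (70.3% in the equal-weight fit), 43.4% in spiny neurons, 49.1% in astrocytes, 43.9% in oligodendrocytes, 44.6% in microglia and 45.6% in endothelial cells, so that most calls were then lower; the cause was not tested.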
